A study of Mus musculus with 16 samples.

Results

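The folding machinery of the endoplasmic reticulum (ER) was followed through oocyte maturation in 10 genes taken by name from the expression table: the chaperones Hspa5, Hyou1 and Hsp90b1, the lectin chaperones Calr and Canx, the protein disulfide isomerases P4hb, Pdia3, Pdia4 and Pdia6, and the transcription factor Xbp1. Each of the 10 had 1 entry, out of 27987 gene names and 28618 entries in all. RNA had been sequenced from germinal vesicle (GV) oocytes, which are held in prophase of meiosis, and from mature eggs at metaphase II (MII). The females were either wildtype (WT) or Psma7 fl/fl;Zp3-Cre (Psma7 cKO), 3 to 4 weeks old, with 4 libraries of each genotype at each stage and 16 libraries in all. Psma7 encodes a subunit of the 20S core of the proteasome, and CRE under the Zp3 promoter removes it in growing oocytes from the primary follicle stage, while the follicular cells around them keep the gene.

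Females of all groups were given 5 IU PMSG, a gonadotropin that stimulates follicle growth. GV oocytes were collected 44 h later, and the egg donors received hCG at that time and were collected 14 to 16 h after it. Cumulus cells were taken off the eggs in 0.3% hyaluronidase. The study reports that part of the ovulated Psma7 cKO oocytes did not complete maturation, and the labels give the stage of the egg libraries only as MII. A genotype difference in eggs thus cannot be told apart from a difference in maturation. According to the labels each library was made from 5 oocytes, whereas the text of the study gives a larger pool, and neither says how many females stand behind a library, so the p-values measure the spread between these pools. Levels are FPKM, fragments scaled by transcript length and by the mapped fragments of the library, and so are shares of the RNA captured from each library. RNA was primed at the poly(A) tail, so loss of a transcript and loss of its tail cannot be told apart, and neither can a larger share of the RNA and more RNA per oocyte.

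Proteins that enter the ER are folded there before they are secreted or placed in membranes, and the oocyte uses this route for the glycoproteins of the zona pellucida and for secreted growth factors. Hspa5 (BiP) binds unfolded chains in the ER lumen and holds the stress sensors inactive, calreticulin and calnexin hold glycoproteins by their trimmed sugars, and the disulfide isomerases form and rearrange disulfide bonds. When unfolded protein accumulates, the sensor encoded by Ern1 cuts the Xbp1 mRNA, the ligase Rtcb joins the cut ends, and the factor made from the spliced form acts with Atf6 on chaperone promoters. The table gives 1 value for Xbp1, in which spliced and unspliced forms cannot be told apart.

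Many promoters of this system carry the ER stress response element (ERSE), searched here on both strands as CCAAT and CCACG with 9 free bases between them. In the RefSeq windows of GRCm38.p6, which run from 250 bases before to 50 bases after a start site, it was found for 5 of the 9 genes with a window, Hspa5, Hsp90b1, Calr, Canx and Pdia6, and not in the windows of P4hb, Pdia3, Pdia4 and Xbp1. Of all 32851 windows 39 held it, or 0.119%. The element was searched because it is known from promoters of this system, so that share gives the scale and is not a test. The 6 sites are shown because they are the sequence these genes have in common, each read in the direction of the element with 5 flanking bases on either side, and the capitals mark its fixed letters.
Hspa5, chr2:34772020-34772048: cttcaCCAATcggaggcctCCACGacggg
Hsp90b1, first site, chr10:86705633-86705661: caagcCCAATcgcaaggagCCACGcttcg
Hsp90b1, second site, chr10:86705528-86705556: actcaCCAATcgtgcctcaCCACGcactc
Calr, chr8:84847070-84847098: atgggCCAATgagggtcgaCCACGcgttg
Canx, chr11:50325795-50325823: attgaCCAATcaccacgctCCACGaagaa
Pdia6, chr12:17266486-17266514: agagaCCAATgaaaggcggCCACGgcgtg
Hspa5 and Pdia6 lie on the plus strand and Hsp90b1, Calr and Canx on the minus strand. The element ran in the direction of transcription in Hspa5, Canx, Pdia6 and the first site of Hsp90b1, and against it in Calr and the second site of Hsp90b1. It ended 47 bases before the start site in Hspa5, 80 bases in Pdia6, 89 and 194 bases in Hsp90b1, 127 bases in Canx and 144 bases in Calr.

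The related elements ERSE-II (ATTGG and CCACG with 1 free base between them) and the core of the UPR element (TGACGTGG), also searched on both strands, were not found in any of the 9 windows, against 0.0365% and 0.676% of all windows. Among 73 other ER genes in 8 roles, which are used below for comparison, 59 had a window, and 5 of these (8.47%) held ERSE. Calr and Pdia4 are the pair whose levels differed between genotypes in eggs, and the 250 bases before their start sites are given on the strand of the gene. Calr was read from chr8:84846932-84847181, where capitals mark the fixed letters of the reversed ERSE, and Pdia4 from chr6:47813513-47813762, where none of the 3 elements was found.
Calr: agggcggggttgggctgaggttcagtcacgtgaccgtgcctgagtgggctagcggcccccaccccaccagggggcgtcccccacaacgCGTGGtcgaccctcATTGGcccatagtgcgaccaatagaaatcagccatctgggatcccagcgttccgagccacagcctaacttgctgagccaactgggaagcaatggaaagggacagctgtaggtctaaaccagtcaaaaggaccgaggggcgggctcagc
Pdia4: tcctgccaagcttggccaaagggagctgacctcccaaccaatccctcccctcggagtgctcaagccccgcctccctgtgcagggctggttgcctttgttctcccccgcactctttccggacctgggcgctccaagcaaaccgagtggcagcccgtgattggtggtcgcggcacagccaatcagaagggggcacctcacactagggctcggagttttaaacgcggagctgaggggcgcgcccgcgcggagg
A match to these letters is a description of the sequence and not of binding.

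The targeted gene was lower in Psma7 cKO than in WT at both stages. In GV libraries the Psma7 level was 165 ± 25.3 FPKM (SD, n = 4) for WT against 14.6 ± 2.82 FPKM for Psma7 cKO. In eggs it was 126 ± 32.1 FPKM in WT. In Psma7 cKO egg replicates 1 to 4 it was 13.6, 50.3, 35.0 and 59.9 FPKM, so the remaining level differed between these libraries. Within Psma7 cKO it rose from GV oocyte to egg by 1.27 on the log2 scale (adjusted p = 0.0188 in limma), with overlapping libraries. Psma7 cKO minus WT was -3.51 on that scale in GV oocytes and -1.83 in eggs. A test of whether these differ did not pass (adjusted p = 0.0847 in limma). The depth estimated from the steps between low FPKM values was 10.6 to 15.8 M fragments per library. All 10 oocyte markers checked, among them Zp3 and Gdf9, were at 1 FPKM or more in every group. Of 16 cumulus and granulosa markers, 4 reached a mean of 1 FPKM in each GV group and 3 in each egg group, and their summed level was between 17.7 and 24.2 FPKM in every library, led by Cyp19a1.

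In WT GV oocytes the chaperones were abundant transcripts. Their mean levels ran from 187 FPKM for Calr, rank 356 of 28618 entries, and 178 FPKM for Hsp90b1, rank 373, through Pdia6, Hspa5, Pdia3, P4hb and Canx, down to 36.9 FPKM for Pdia4. Libraries of neighbours in this order overlapped for Calr and Hsp90b1, for Pdia6 and Hspa5, and for Pdia3 and P4hb, and the other neighbours were apart. Hyou1, which exchanges nucleotide on Hspa5, was far lower at 2.44 ± 0.270 FPKM (rank 8621), and Xbp1 was at 0.647 ± 0.411 FPKM (rank 12091). The order was the same in Psma7 cKO GV oocytes. In eggs Hsp90b1 came first, Pdia6 and P4hb followed it, and Calr had moved from first to seventh, in both genotypes. Over the 10 genes the summed level was 883 ± 71.5 FPKM in WT GV, 882 ± 113 in Psma7 cKO GV, 665 ± 32.1 in WT eggs and 647 ± 64.9 in eggs of Psma7 cKO. Calr made up 21.2% of that sum in WT GV and 5.39% in WT eggs, and Hsp90b1 20.2% and 32.9%.

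**Figure D1:**
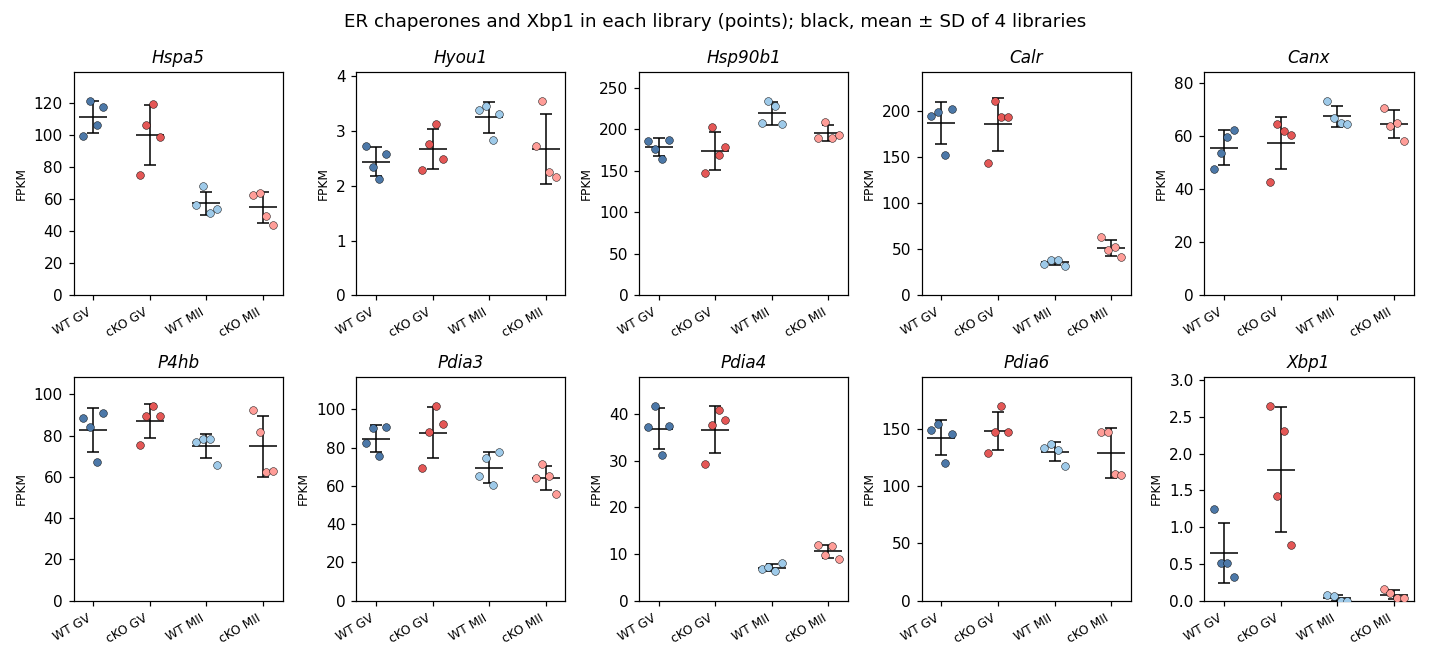
FPKM of the 10 genes in each of the 16 libraries (points, replicates 1 to 4 from left to right), by genotype and stage, with the mean and SD of 4 libraries in black. Each panel starts at 0 and has its own scale. Calr and Pdia4 drop from GV oocytes to eggs in both genotypes, while Hsp90b1 stays between 147 and 234 FPKM in every library.

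The first question is whether loss of Psma7 changed these transcripts in GV oocytes. None of the 10 passed in limma at an adjusted p of 0.05, against 0.118% of all 11062 entries tested, in either direction. At an unadjusted p under 0.05 there was 1, Xbp1, which entered the test only through its level in Psma7 cKO, and 10.7% of all entries were under that p. The median log2 fold change of the 10, Psma7 cKO minus WT, was 0.04, and that of all entries tested was also 0.04.

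Hspa5 was at 99.6, 121, 106 and 118 FPKM in the WT GV libraries and at 75.1, 107, 119.8 and 99.2 FPKM in Psma7 cKO. The groups overlapped, and the difference was -0.17 on the log2 scale (95% interval -0.47 to 0.13). Hyou1 was at 2.73, 2.35, 2.11 and 2.57 FPKM in WT and at 2.29, 2.76, 3.13 and 2.49 FPKM in Psma7 cKO, a log2 difference of 0.13 (95% interval -0.21 to 0.46). For the other chaperone of the lumen, Hsp90b1 (GRP94, which folds secreted and membrane receptors), the difference was -0.04 (95% interval -0.27 to 0.19).

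The lectin chaperones gave -0.02 for Calr (95% interval -0.32 to 0.28) and 0.03 for Canx (95% interval -0.28 to 0.34). Of the disulfide isomerases, the log2 differences were 0.08 for P4hb (-0.17 to 0.33), 0.04 for Pdia3 (-0.23 to 0.31), -0.01 for Pdia4 (-0.29 to 0.27) and 0.06 for Pdia6 (-0.18 to 0.30). In all 9 chaperones the libraries of the genotypes overlapped. Libraries were apart with Psma7 cKO higher for only 4.25% and lower for 2.42% of all entries tested, so this does not set the chaperones apart from other genes. These intervals reach 0.47 at most in either direction, so a smaller change is not resolved.

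Xbp1 was at 1.25, 0.508, 0.517 and 0.317 FPKM in WT GV libraries and at 2.64, 1.43, 2.30 and 0.761 FPKM in Psma7 cKO. The 3 highest values were all from Psma7 cKO, but the fourth Psma7 cKO library lay below the highest WT library. With values under 1 FPKM set to 1, the log2 difference was 0.70 ± 0.28 (SE, 95% interval 0.08 to 1.32), with an adjusted p = 0.401 in limma. Since 3 of the 4 WT values were set to the floor and the mean of 1 FPKM needed for the test was reached only through the Psma7 cKO libraries, this difference is given as a description. With a floor of 0.1 FPKM the difference was 1.50 on the log2 scale, with an adjusted p = 0.285, and with 1 FPKM added to every value it was 0.73 (adjusted p = 0.283). From the estimated depths and the longest annotated transcript, these levels stand for about 7.69 to 41.1 fragments in a WT and 17.1 to 77.3 fragments in a Psma7 cKO GV library.

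The second question is the same comparison in eggs. Of the 9 genes tested, Calr and Pdia4 were higher in Psma7 cKO eggs and none was lower, against 6.53% of 9492 entries called higher and 1.49% called lower. In the study, most transcripts raised more than 3-fold in Psma7 cKO eggs were maternal mRNAs that normally decay at maturation. The study calls their elevation slight and not statistically significant. Calr (1.43-fold) and Pdia4 (1.49-fold) lie under that cutoff and would not belong to that set. Both Calr and Pdia4 fell at maturation in WT, as given below, and the share called among falling entries alone was not computed. Calr was at 34.3, 38.3, 38.6 and 32.3 FPKM in WT eggs and at 63.0, 49.0, 52.1 and 42.2 FPKM in Psma7 cKO eggs. The lowest Psma7 cKO library lay above the highest WT library. The log2 difference was 0.51 ± 0.12 (SE), or 1.43-fold, with an adjusted p = 0.0399 in limma.

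Pdia4, a disulfide isomerase of the ER lumen, was at 6.76, 7.25, 6.25 and 8.09 FPKM in WT eggs. In Psma7 cKO eggs it was at 11.9, 9.77, 11.6 and 8.98 FPKM. The libraries again did not overlap, as was so with Psma7 cKO higher for 13.6% of all entries tested. The log2 difference was 0.57 ± 0.13 (SE), or 1.49-fold, with an adjusted p = 0.0350 in limma.

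Both calls lay near the threshold and were lost when most of the single libraries were left out. Leaving out any 1 of the 4 WT egg libraries, or Psma7 cKO egg replicate 1 or 3, ended them, with differences of 0.41 to 0.55 for Calr and 0.51 to 0.64 for Pdia4. The limma adjusted p was then 0.0606 to 0.114 for Calr and 0.0635 to 0.102 for Pdia4, and Calr was also lost without the intensity trend (adjusted p = 0.0575). Psma7 was lowest and Calr and Pdia4 were highest in the same library, Psma7 cKO egg replicate 1. The summed level of the 10 oocyte markers was 4759 to 5766 FPKM in the WT and 5498 to 6892 FPKM in the Psma7 cKO egg libraries, and the part of either measure in the result was not tested.

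The other chaperones did not pass in eggs. Hsp90b1 was at 208, 234, 228 and 207 FPKM in WT and at 189, 209, 189 and 192 FPKM in Psma7 cKO. Of the 4 Psma7 cKO libraries 3 lay below all WT libraries, and the log2 difference was -0.17 ± 0.07 (SE, 95% interval -0.32 to -0.02), with an adjusted p = 0.134 in limma. Hyou1 was at 3.39, 3.45, 2.84 and 3.30 FPKM in WT eggs and at 2.73, 3.54, 2.24 and 2.17 FPKM in Psma7 cKO eggs, where replicate 2 was above every WT library. Its difference was -0.31 (95% interval -0.70 to 0.09).

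Hspa5 is a common readout of ER stress through its transcription, but the study describes fully grown oocytes as transcriptionally quiescent. Its level may thus not report stress in these cells, and ER stress was not tested. Hspa5 was at 56.4, 68.0, 51.5 and 54.1 FPKM in WT eggs and at 62.4, 64.0, 49.3 and 44.2 FPKM in Psma7 cKO eggs. The log2 difference was -0.07 (95% interval -0.38 to 0.24). The groups overlapped over most of their range. Canx gave -0.07 (95% interval -0.24 to 0.11), Pdia3 -0.11 (-0.35 to 0.12), P4hb -0.02 (-0.33 to 0.28) and Pdia6 -0.03 (-0.29 to 0.24). The median log2 difference of the 9 genes was -0.07 and that of all entries was 0.07. Xbp1 was at 0.0720, 0.0609, 0 and 0 FPKM in WT eggs and at 0.152, 0.105, 0.0331 and 0.0338 FPKM in Psma7 cKO eggs, under 5 fragments in any library by the estimate used above, and was not tested.

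**Figure D2:**
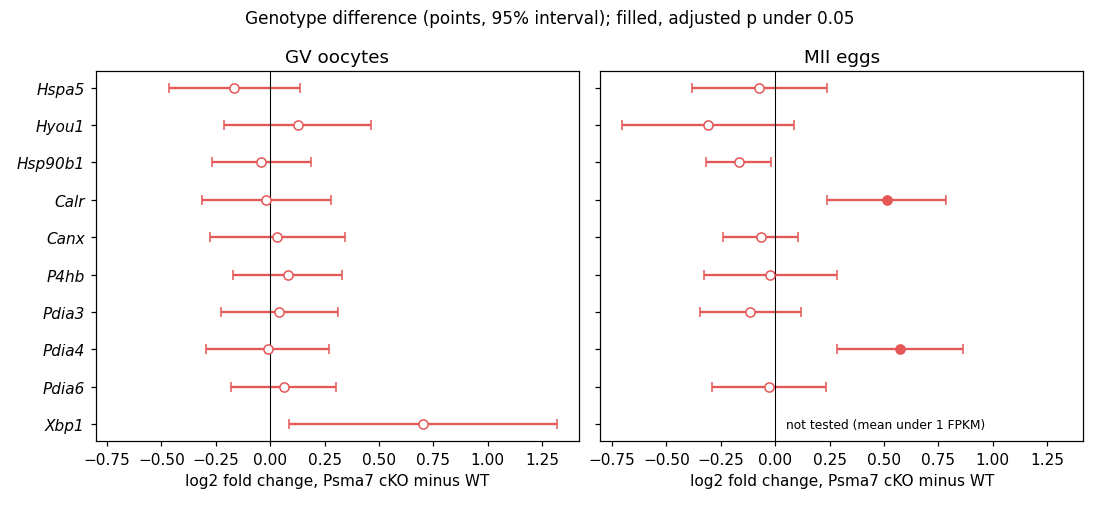
Log2 fold change between Psma7 cKO and WT (x axis) of each gene, in GV oocytes on the left and MII eggs on the right, with 95% intervals. Filled points passed at an adjusted p of 0.05, and these were Calr at 0.51 and Pdia4 at 0.57 in eggs. Xbp1 was not tested in eggs.

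The third question is how the transcripts changed from GV oocyte to egg. In WT, 3 of the 9 genes tested rose and 4 fell, while 26.1% of 10475 entries rose and 52.4% fell. The median log2 change was -0.14 for the 9 genes and -0.44 for all entries. Those that fell were Calr, Pdia4, Hspa5 and Pdia3, and those that rose were Hyou1, Hsp90b1 and Canx.

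Calr fell from 195, 199, 153 and 202 FPKM in WT GV oocytes to the 32.3 to 38.6 FPKM of WT eggs given above, a log2 change of -2.38 ± 0.11 (SE), with an adjusted p = 8.99e-09 in limma. Pdia4 fell from 37.2, 41.6, 31.1 and 37.5 FPKM to between 6.25 and 8.09 FPKM, also by 2.38 on the log2 scale, with an SE of 0.12 and an adjusted p = 1.71e-08. Both were left in WT eggs at nearly the same share of their GV level, 19.1% ± 1.64 for Calr and 19.2% ± 2.12 for Pdia4 (SD, n = 4). Such shares divide each egg library by the GV mean, so their SD leaves out the spread between GV libraries. Calr holds ERSE in its promoter window and Pdia4 does not, and a part of the element in the fall was not tested.

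Hspa5 fell by 0.96 ± 0.10 (SE) on the log2 scale in WT, with an adjusted p = 8.16e-06 in limma, and 51.7% ± 6.57 of its GV level was left in eggs. Pdia3, the isomerase that works with Calr and Canx on glycoproteins, was at 82.3, 90.4, 75.7 and 90.8 FPKM in WT GV oocytes and at 65.0, 74.8, 60.7 and 77.8 FPKM in WT eggs. Its fall of 0.29 ± 0.10 (SE) on the log2 scale passed at an adjusted p = 0.0219 although the libraries overlapped. The call was lost without WT GV replicate 2 or 4 (adjusted p = 0.0596 and 0.0630) and without WT egg replicate 1 or 3 (adjusted p = 0.0641 and 0.0678).

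Hsp90b1 rose from 186, 176, 164 and 187 FPKM in WT GV oocytes to between 207 and 234 FPKM in WT eggs, a log2 change of 0.30 ± 0.08 (SE), with an adjusted p = 0.00461 in limma. Canx, the membrane-bound partner of Calr, was at 47.4, 53.5, 59.5 and 62.0 FPKM in WT GV oocytes and at 73.1, 66.6, 64.9 and 64.6 FPKM in WT eggs. Its rise of 0.28 ± 0.10 (SE) passed at an adjusted p = 0.0203 and was lost without WT GV replicate 1 (adjusted p = 0.0542) or WT egg replicate 1 (adjusted p = 0.0656). Hyou1 rose by 0.41 ± 0.13 (SE), with an adjusted p = 0.0142. The libraries of the stages did not overlap for these 3 genes, as was so with eggs higher for 23.9% of all entries, nor for Calr, Pdia4 and Hspa5, as was so with eggs lower for 48.7%. Thus the pair of lectin chaperones took opposite directions in WT.

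P4hb was at 88.4, 84.2, 67.4 and 91.1 FPKM in WT GV oocytes and at 77.0, 78.4, 78.3 and 65.9 FPKM in WT eggs, a log2 change of -0.14 (95% interval -0.38 to 0.10). Pdia6 was at 149.6, 155, 120.2 and 146 FPKM in WT GV oocytes and at 134, 138, 132 and 118 FPKM in WT eggs, a change of -0.13 (95% interval -0.33 to 0.08). Both were lowest among WT GV oocytes in replicate 3, and without that library both passed as lower in eggs (adjusted p = 0.0239 for P4hb and 0.0231 for Pdia6). Xbp1 had a mean under 1 FPKM over the 8 WT libraries and was not tested. Every WT GV library was above every WT egg library for it, and the WT egg mean was 5.13% of the WT GV mean.

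In Psma7 cKO the same 4 genes fell and none of the 9 rose, against 51.0% of 10748 entries that fell and 23.0% that rose. Calr was at 143, 211, 194 and 194 FPKM in Psma7 cKO GV oocytes and fell by 1.85 ± 0.15 (SE) on the log2 scale, with an adjusted p = 7.55e-06 in limma. Pdia4 was at 29.3, 37.7, 40.9 and 38.7 FPKM and fell by 1.79 ± 0.14 (SE), with an adjusted p = 5.67e-06. Hspa5 fell by 0.86 ± 0.17 (SE), with an adjusted p = 0.00132.

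Pdia3 was at 69.4, 88.1, 102 and 92.4 FPKM in Psma7 cKO GV oocytes and at 64.1, 71.6, 65.2 and 55.9 FPKM in Psma7 cKO eggs. Its libraries overlapped, and it fell by 0.44 ± 0.13 (SE), with an adjusted p = 0.0112 in limma. The genes that rose in WT did not pass here. The log2 change was 0.17 for Hsp90b1 (95% interval -0.06 to 0.40), 0.18 for Canx (-0.13 to 0.49) and -0.02 for Hyou1 (-0.43 to 0.39). Hsp90b1 passed without Psma7 cKO GV replicate 2 (adjusted p = 0.0477), and P4hb passed as lower without Psma7 cKO egg replicate 1 (adjusted p = 0.0377).

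Of the GV level of their own genotype, Psma7 cKO eggs held 27.7% ± 4.65 for Calr and 28.8% ± 3.86 for Pdia4 (SD, n = 4). These SDs and the ranges below leave out the spread between GV libraries, since each egg library was divided by a GV mean. The Calr share was 22.7% to 33.9% in the Psma7 cKO egg libraries and 17.2% to 20.6% in the WT ones. The Pdia4 share was 24.5% to 32.4% and 17.0% to 21.9%. For Hspa5 the shares were 54.9% ± 9.72 in Psma7 cKO and 51.7% ± 6.57 in WT, with overlapping libraries. Hyou1 stood at 133% ± 11.4 of its GV level in WT eggs, and in Psma7 cKO the mean was 2.67 FPKM at both stages.

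**Figure D3:**
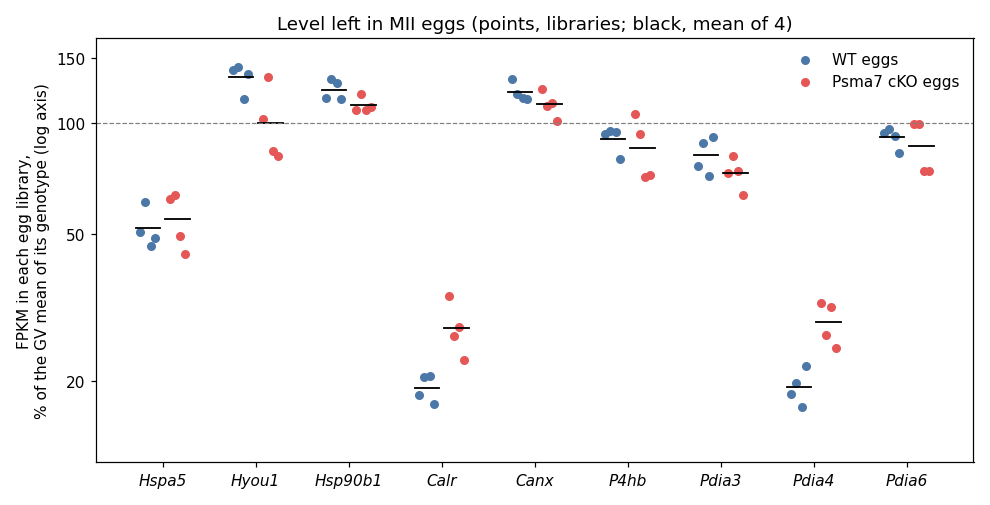
FPKM of each egg library as a percentage of the GV mean of its own genotype (log axis), for the 9 chaperones, with the mean of 4 libraries in black and 100% dashed. Calr and Pdia4 are left at 17.0% to 21.9% in WT eggs and at 22.7% to 33.9% in Psma7 cKO eggs, and Hsp90b1 and Canx have means above 100% in both genotypes.

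Whether the change from GV oocyte to egg differed between genotypes was tested as an interaction in all 16 libraries. None of the 9 genes passed, while 1.26% of 10615 entries passed in either direction. At an unadjusted p under 0.05 there were 2 of the 9, and 17.7% of all entries. These 2 were Pdia4, with a difference of 0.59 ± 0.18 (SE) on the log2 scale and an adjusted p = 0.114 in limma, and Calr, with 0.53 ± 0.19 and an adjusted p = 0.161. Hyou1 gave -0.43 (95% interval -0.90 to 0.04) and Hspa5 0.09 (95% interval -0.35 to 0.53).

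In some libraries most chaperones deviated from their group mean in the same direction, and in others they were split. In Psma7 cKO GV replicate 1 all 9 lay below their group mean, with a median deviation of -0.31 on the log2 scale, from -0.41 for Canx to -0.19. Over the 6337 entries with a mean of at least 5 FPKM the median deviation of that library was 0.01, and 7.13% of them lay lower than the chaperone median. Xbp1 went the other way, since the same library had its highest level. In WT GV replicate 3, 8 of 9 chaperones were below the group mean, with a median of -0.20, lower than which lay 22.5% of those entries, and Canx was above it. Psma7 cKO egg replicate 4 had all 9 below the mean, with a median of -0.22, lower than which lay 14.5% of the entries, and 55.7% of the entries were below their own mean in that library. Replicates 1 and 2 of that group had chaperone medians of 0.18 and 0.15. In WT egg replicates 1 and 3 and Psma7 cKO egg replicate 3 the chaperones split into 5 below and 4 above.

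Among the 8 chaperones other than Hyou1, all 28 pairs had a positive Pearson r of these deviations over the 16 libraries, with a median of 0.547. The median was 0.775 over the 8 GV libraries, where all 28 pairs were again positive. Over the 8 egg libraries it was 0.458, with 26 pairs positive, and r was -0.45 for Hsp90b1 and Pdia4 and -0.28 for Hsp90b1 and Canx. The range over all 16 was from 0.27 for Hsp90b1 and Pdia4 to 0.93 for P4hb and Pdia6. The points share libraries, depth and library chemistry, and no background of other genes was computed, so these values are descriptions. Leaving out Psma7 cKO GV replicate 1 gave GV log2 differences, Psma7 cKO minus WT, of -0.03 for Hspa5, 0.10 for Calr and 0.17 for Canx, and none of the 10 genes passed.

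**Figure D4:**
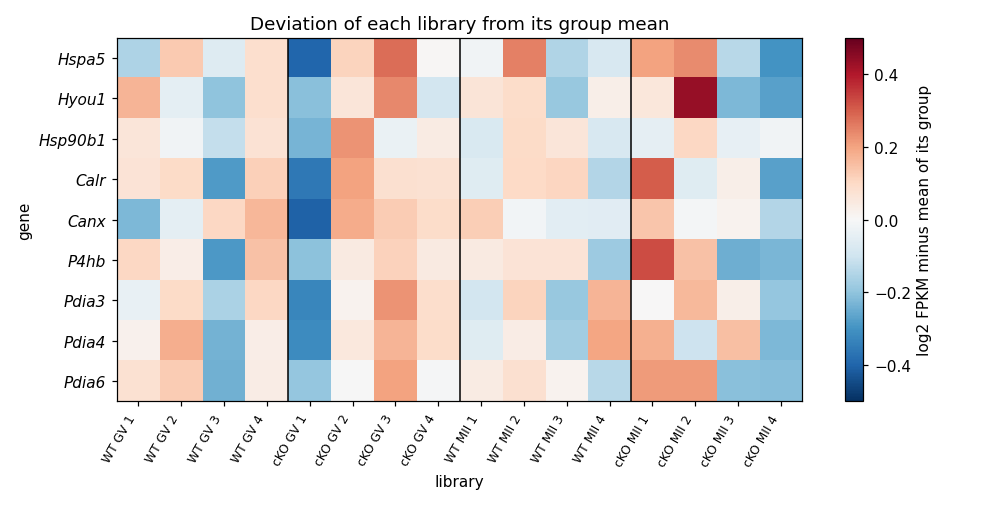
Deviation of log2 FPKM from the mean of its group (colour) for the 9 chaperones (rows) in each library (columns), with lines between groups. Psma7 cKO GV replicate 1 and Psma7 cKO egg replicate 4 are below the group mean in all 9 rows.

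By Pearson r over the 16 libraries, among the same 6337 entries, the patterns most like that of Hspa5 were those of Fbxo30 (0.971), Tmbim6 (0.964) and Sel1l (0.956). Sel1l, a part of the ER degradation complex, had means of 7.24 FPKM in WT GV, 7.36 in Psma7 cKO GV, 4.79 in WT eggs and 4.26 in eggs of Psma7 cKO. For Xbp1 the nearest were Msh3 (0.83), Sgms1 (0.81) and Bcl10 (0.81). With the floor at 1 FPKM only 4 libraries, all of GV oocytes, gave Xbp1 a value above the floor, so those coefficients rest on them.

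The 73 other genes of ER folding, quality control and stress signalling had 77 entries. In GV oocytes 65 were tested and none passed in limma, while 6 (9.23%) had an unadjusted p under 0.05 with Psma7 cKO above WT and 2 (3.08%) with it below, near the 7.62% and 3.06% of all entries. Their median log2 difference was 0.10, and that of all entries 0.04. The most abundant of the outputs of the PERK branch was Atf4, a transcription factor of the stress response, at 116 ± 27.3 FPKM in WT GV oocytes against 169 ± 12.2 FPKM in those of Psma7 cKO. The libraries of the genotypes did not overlap, as was so with Psma7 cKO higher for 4.25% of all entries tested. The log2 difference was 0.57 ± 0.15 (SE) with an adjusted p = 0.185 in limma.

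In eggs 59 were tested, 4 (6.78%) were higher in Psma7 cKO and none was lower, near the 6.53% and 1.49% of all entries. When p was left unadjusted these were 13 (22.0%) and 4 (6.78%), against 20.6% and 8.8% of all entries, so the list as a whole was called about as often as other genes. The median was 0.08, and that of all entries 0.07. Derl3, part of the channel that returns misfolded proteins to the cytosol, was at 5.27 FPKM in WT eggs against 12.6 FPKM in Psma7 cKO eggs, a log2 difference of 1.30 ± 0.32 (SE) with an adjusted p = 0.0426 in limma. Erp29, a protein of the disulfide isomerase family, was at 8.37 and 15.6 FPKM, a difference of 0.89 ± 0.13 (SE) with an adjusted p = 0.0191.

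Ssr1, a subunit of the complex beside the translocon, was at 9.50 FPKM in WT eggs against 13.9 FPKM in Psma7 cKO eggs, a log2 difference of 0.54 ± 0.12 (SE). Sil1, a nucleotide exchange factor of Hspa5, was at 7.52 and 10.6 FPKM, a difference of 0.50 ± 0.12 (SE). The libraries of the genotypes did not overlap for any of the 4, as was so with Psma7 cKO higher for 13.6% of all entries tested. Since the 4 were called from these same libraries, this adds no support. Without WT egg replicate 1, 3 or 4 none of the list passed as higher, without WT egg replicate 2 or Psma7 cKO egg replicate 1 or 3 there was 1, and without Psma7 cKO egg replicate 2 there were 7. Sec61g, a translocon subunit and the most abundant of that role, was at 98.1 ± 20.5 FPKM in WT eggs against 162 ± 33.5 FPKM in Psma7 cKO eggs and did not pass (adjusted p = 0.0501), and Atf4 was at 43.5 ± 11.6 and 100.1 ± 54.2 FPKM (adjusted p = 0.0714).

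**Figure D5:**
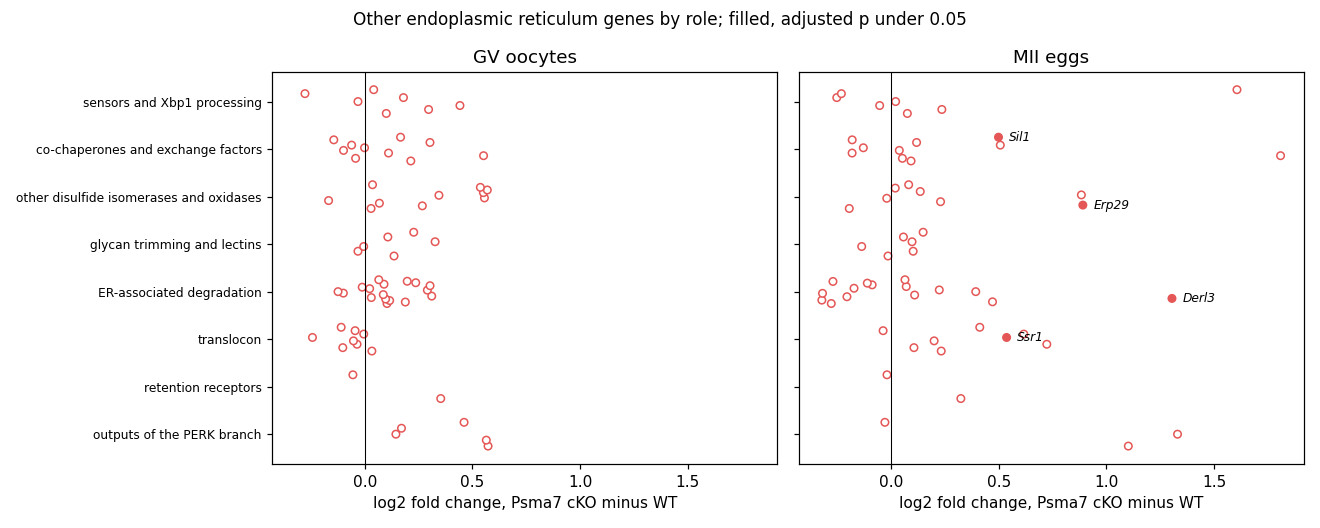
Log2 fold change between Psma7 cKO and WT (x axis) of the other ER genes, by role (rows), in GV oocytes on the left and MII eggs on the right. Filled points passed at an adjusted p of 0.05, which none did in GV oocytes, and in eggs these were Sil1, Erp29, Derl3 and Ssr1.

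The parts that process Xbp1 moved in opposite directions at maturation in both genotypes. Ern1 rose from 23.5 to 60.9 FPKM in WT, a log2 change of 1.37 ± 0.08 (SE), and from 23.0 to 61.8 FPKM in Psma7 cKO, a change of 1.42 ± 0.09. Rtcb fell from 75.2 to 1.84 FPKM in WT, a log2 change of -5.41 ± 0.23 (SE), and from 78.1 to 6.29 FPKM in Psma7 cKO, a change of -3.85 ± 0.42. The difference between genotypes in Rtcb did not pass in eggs (adjusted p = 0.0605) or as an interaction (adjusted p = 0.124), both in limma.

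Of the list as a whole, 19 of 62 tested (30.6%) rose and 33 (53.2%) fell in WT, near the 26.1% and 52.4% of all entries. In Psma7 cKO 14 of 64 (21.9%) rose and 33 (51.6%) fell, near the 23.0% and 51.0% of all entries. Kdelr2, which returns ER chaperones that carry a retention signal, rose most in both genotypes, from 59.4 to 163 FPKM in WT and from 56.8 to 161 FPKM in Psma7 cKO. The order given here is that of log2 changes after values under 1 FPKM were set to 1. After Kdelr2 and Ern1, the largest rises that passed were those of Uggt2, a sensor of glycoprotein folding, by 1.10, and Tmx3, an isomerase of the membrane, by 1.10 in WT, and of Sec61b by 1.14 and Uggt2 by 1.02 in Psma7 cKO, all on the log2 scale. After Rtcb, the largest falls were those of Ddit3, a stress transcription factor, from 23.1 to 1.97 FPKM, Derl3 from 35.7 to 5.27 FPKM, and Ganab, which trims glucose from glycans, from 13.8 to 2.64 FPKM in WT. In Psma7 cKO they were Ddit3 from 25.3 to 6.06 FPKM, Ganab from 13.3 to 3.01 FPKM, and the isomerase Tmx2 from 3.98 to 0.284 FPKM. Tmx2 also fell in WT, from 2.75 to 0.0508 FPKM, and since its egg levels lie under the floor and it entered the test only through GV oocytes, its place in the order is set by the floor and would be higher without it.

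Other abundant genes of the list rose or fell less. Dnajc3, a co-chaperone of Hspa5, rose from 92.2 to 136 FPKM in WT and from 92.2 to 124 FPKM in Psma7 cKO, and Selk (Selenok), of ER-associated degradation, from 123 to 179 FPKM and from 122 to 188 FPKM. The isomerase Txndc5 fell from 96.1 to 52.1 FPKM and from 97.6 to 55.0 FPKM. Calr3, listed here under glycan trimming and lectins, rose in WT from 92.5 to 111 FPKM (adjusted p = 0.0296 in limma). It was at 102 and 109.6 FPKM in Psma7 cKO, where it did not pass. In WT eggs its mean was thus above the 35.9 ± 3.08 FPKM of Calr, whereas in GV oocytes the mean of Calr had been above that of Calr3. The interaction passed for 1 of the 62 entries of the list tested, Ssr1, at 0.78 ± 0.15 (SE) with an adjusted p = 0.0294, or 1.61% against 1.07% of all entries called higher.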

How the data were processed

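Expression was taken from the table of FPKM values that the authors deposited, 1 column for each of the 16 libraries, matched to genotype, stage and replicate by column name. According to the study, cDNA was made by Smart-seq2 and FPKM came from Cufflinks, and the submitters' processing notes name TopHat2 2.1.1, Cufflinks 2.2.1 and mm10. Spike-in RNA was added, but the table holds 0 ERCC entries, so libraries were compared as shares.

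Values below 1 FPKM, the study's floor, were set to 1, and entries averaging 1 FPKM or more in the libraries of a fit were tested on the log2 scale in limma 3.58.1 (R 4.3.3) with an intensity trend and Benjamini-Hochberg adjustment over all entries, at 0.05. Each comparison of 2 groups used its own 8 libraries. Fold changes are on that floored scale and understate changes near 1 FPKM. Intervals are 95% and cover the spread between libraries. The depth of 10.6 to 15.8 M fragments was estimated from steps of values under 0.6 FPKM and GENCODE M21 transcript lengths, and 38.2% to 42.2% of values came within 0.1 of a whole fragment, where an even spread gives 20%, so counts were not recovered and no count test was run.

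All 10 genes were named, and from the other ER genes those past the threshold, at most 4 in each direction, and the most abundant of each role. For Hspa5 and Xbp1 the 3 nearest patterns were named. Dnajb9 is named in the closing section by neither rule and was chosen after its values were seen. The genes and lists were chosen with earlier results of these data known. Alternatives left out each library in turn, summed entries by name, fitted all 16 libraries together, blocked on replicate number, dropped the trend, dropped the filter or raised it to 5 FPKM, rescaled by the median ratio, added 1 FPKM, or lowered the floor to 0.1 FPKM. The fits were tested on simulated data. Other steps and figures used matplotlib 3.10.9, scipy 1.17.1, pandas 2.3.3 and numpy 2.4.6 under Python 3.11.15.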

Additional observations from a re-analysis of the deposited data

Results flagged for a closer look

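In 40 sets of 4 libraries (each of the 10 genes in each group), a library stood far from the other 3 in 2 sets by Dixon's criterion at 95%, which by chance is met in about 1 set in 20. Calr in WT GV oocytes was lowest in replicate 3, at 153 FPKM, with the next library at 195 FPKM. P4hb in WT eggs was lowest in replicate 4, at 65.9 FPKM, with the next library at 77.0 FPKM.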

How the results depend on the processing

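Of 838 values of the 10 genes under the alternatives, 809 kept their side of the threshold, 25 lost a call and 4 gained one. A sign differed from the reported one in 29 of them, none past the threshold in either fit. The number of the 9 genes higher in Psma7 cKO eggs (2) was 1 without the trend and 0 with the replicate block, where the adjusted p was 0.0636 for Calr and 0.0891 for Pdia4. The block also took the call of Canx in WT maturation (adjusted p = 0.0612). The labels do not say whether libraries with the same replicate number share animals or a batch. Libraries of the same number deviated with r of -0.496 to 0.285, which does not decide it. The number that rose in WT (3) was 1 without the filter, where limma warned that its moderation is unreliable because most entries sit at the floor. There Hyou1 (adjusted p = 0.0521), Canx (0.0531) and Pdia3 (0.0612) lost their calls.

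Of the other ER genes, the number higher in Psma7 cKO eggs (4) was 10 without the filter and 12 with all 16 libraries in one fit, the number lower (0) was 1 with a mean of at least 5 FPKM, and the interaction (1) was 0 without the filter. With a library left out, the ranges were 0 to 2 of the 9 genes and 0 to 7 of the list higher in eggs, 0 to 1 of the 9 genes that rose in Psma7 cKO, and 0 to 4 of the list in the interaction.

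Over all entries, eggs gave 620 higher and 141 lower calls, 101 and 7 with the block, 1278 and 220 with all libraries in one fit, and 3 to 1024 and 0 to 136 with a library left out. GV oocytes gave 11 and 2 calls, and 96 and 28 with all libraries in one fit. The interaction gave 114 and 20, 22 and 7 without the filter, and 37 to 605 and 4 to 46 with a library left out. Levels under 1 FPKM, as of Xbp1, rest on few fragments.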

Other observations

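Dnajb9, a co-chaperone of Hspa5, was chosen after its values were seen. It does not stand for the other ER genes, of which 4 of 59 tested passed as higher in Psma7 cKO eggs. Dnajb9 was at 5.16 FPKM in WT GV oocytes against 7.68 FPKM in those of Psma7 cKO. The log2 difference was 0.55 ± 0.19 (SE) with an adjusted p = 0.328 in limma. In eggs it was at 1.54 and 5.74 FPKM, a difference of 1.81 ± 0.48 (SE) with an adjusted p = 0.0518 and overlapping libraries. It fell at maturation in WT (adjusted p = 0.000215), whereas in Psma7 cKO the log2 change was -0.60 (adjusted p = 0.212), and the interaction was 1.26 ± 0.55 (SE, adjusted p = 0.247).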
